A study of Rattus norvegicus with 30 samples.

Results

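The hepatocyte cultures that received only water, the vehicle of the study, were compared between 48 h and 24 h after dosing, which gives the change of these cells in culture with no drug. The members were chosen by their labels as the 5 samples of water at 48 h and the 5 of water at 24 h, 10 of the 30 samples in the series. The cells were frozen hepatocytes of male Sprague Dawley rats from 1 supplier. All groups shared the same handling, in which thawed cells attached to collagen, received an overlay of Matrigel (a gel of basement membrane proteins) and were dosed on day 3 of culture. The other 4 groups, also of 5 cultures each, received sodium valproate at 0.5 mM or 10 mM and were harvested at 24 h or 48 h. Valproate is an anticonvulsant that inhibits histone deacetylases. Each culture was 1 well, and the labels call the 5 wells of a group independent. The sources used here give neither the number of donor animals nor the plate of each well. The p-values therefore describe variation among wells, and plate and harvest time cannot be told apart if a plate held 1 harvest time. RNA of each culture was read on 1 oligonucleotide array as signal intensity for each probeset, a set of probes for 1 transcript, and the number of arrays limits the precision.

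Hepatocytes are the main cells of the liver. They secrete most plasma proteins, among them clotting factors, complement and acute phase proteins, and they clear drugs and hormones through cytochrome P450 enzymes. These genes depend on a network of liver transcription factors, which includes Hnf4a and Cebpa, and their expression is known to decline when hepatocytes are taken out of the liver and cultured. A gel overlay is used to slow that decline. Cell isolation is also known to raise stress and inflammatory genes.

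The hepatocyte identity of the cultures was clear at both times. All 14 measured hepatocyte markers passed the filter on low signal, and their summed signal ranged from 741596 to 933938 at 24 h and from 713410 to 835186 at 48 h. Albumin (Alb), the main plasma protein, had signals of 60899.9, 76217, 69865, 65456 and 87799 at 24 h and of 70767, 66908, 72659, 70437 and 75361 at 48 h. The ranges overlapped and the log2 change was -0.01 (SE 0.08). In the comparison below, 3 of the 14 markers (Apob, Fgb and Hnf4a) were lower at 48 h and none was higher. The change was below 0 in 13 of the 14, with a median of -0.06, against 5259 of all 11604 genes tested. Across probesets, pairs of water arrays of the same time correlated at 0.947 to 0.973 and pairs across times at 0.939 to 0.968, so every array was kept as a sample of its own.

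RNA quality differed between the times and is given before the results. Degraded RNA loses the 5' end of a transcript first, and control probesets measure both ends. The log2 3'/5' ratio for actin was 1.54, 1.70, 2.76, 1.37 and 1.37 at 24 h and 1.33, 1.22, 1.20, 1.21 and 1.20 at 48 h, in order of replicate. Every array at 24 h lay above every array at 48 h. The difference was -0.52 on the log2 scale, with an exact two-sided permutation p of 0.0079 (n = 5 per group), the smallest that 5 against 5 can give. The GAPDH ratio moved the same way by -0.12 (exact permutation p = 0.0159). Replicate 3 of water at 24 h stood apart, with a median correlation of 0.953 to the other arrays of its group, while the other 9 water arrays lay at 0.967 to 0.970. The plot of actin ratios shows that the opposite held at 0.5 mM, where the mean was 1.29 at 24 h and 1.82 at 48 h, while at 10 mM the means were 1.44 and 1.41. The counts and several lists below are also given without that array, with the actin ratio as a term in the model, and without the 3 water arrays at 24 h with the highest ratios (replicates 1, 2 and 3). The last of these settings was chosen after seeing the data and leaves 2 arrays at 24 h. Among the genes named below as changed, Por, Gcgr, Lss, Acadvl, Itih1, F12, Serpinf2, Hgfac, Nat2, Atf6, Per2, Ube2c, Nfkb1, RT1-Da, Vcl, Vim, Rpl14 and Psmd7 lost the call in at least 1 of the first 2 settings.

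**Figure D1:**
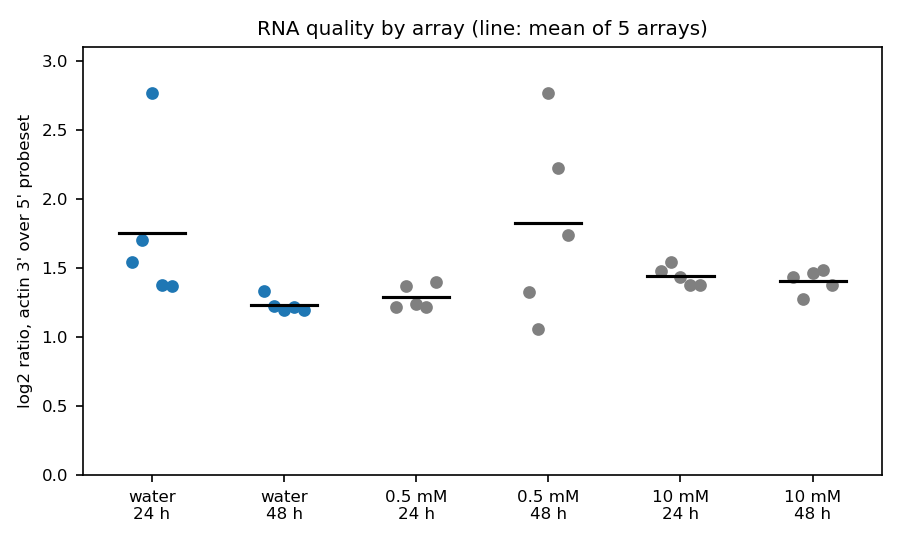
The log2 actin 3'/5' ratio (vertical axis) is plotted for each array (points) with the mean of 5 arrays (lines) in the 6 groups. Water arrays are blue, and those at 24 h, from 1.37 to 2.76, all lie above those at 48 h, from 1.20 to 1.33.

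Between 24 h and 48 h in water, 1688 of 21729 probesets changed (limma, Benjamini-Hochberg adjusted p under 0.05), which is 7.77% of those tested. Of these, 853 were higher and 835 lower at 48 h. A change of at least 2-fold was found for 111 probesets (0.511%), 58 higher and 53 lower. With 1 probeset for each gene, 593 of 11604 genes were higher (5.11%) and 576 were lower (4.96%). For 1209 genes (10.4%), the 5 values at 24 h and the 5 at 48 h did not overlap. In bulk RNA, fewer cells of a type and less RNA per cell cannot be told apart. Most changes were small. The median size among called genes was 0.42 on the log2 scale, the median change of all genes was 0.03, and 22 genes rose and 36 fell by at least 2-fold.

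The number of calls differed between these settings. Without replicate 3 of water at 24 h, 478 genes were higher and 400 lower. With the actin ratio in the model, 450 were higher and 365 lower. Without the 3 arrays with the highest ratios, 220 were higher and 160 lower. Leaving out replicate 3 or 5 at 48 h gave 802 and 846 called genes, and leaving out replicate 1 or 4 at 24 h gave 874 and 1283. The part of RNA quality in these counts was not tested. All 1169 called genes kept their direction in each of these settings, while 769, 637 and 314 of them kept their call. The scaling of the arrays also moved the balance of directions, since centring each array on ribosomal protein genes gave 181 genes higher and 625 lower (22.5% higher, against 50.7% in the deposited scaling). That centring moved the median of all genes from 0.03 to -0.05.

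Among called genes with separate groups and a signal at or above the median in the higher group, several of the largest falls were in genes of secreted proteins. Serpina3c, a secreted inhibitor of the alpha-1-antichymotrypsin group, had signals of 13876, 12075, 16028, 12122 and 12686 at 24 h. At 48 h they were 1698, 2915, 2046, 2292 and 1889.9, which is 6.19-fold lower (log2 change -2.63, SE 0.16, adjusted p = 4.78e-13). The related Serpina3l went from 15839, 15569, 17389, 14237 and 15070.0 to 3998, 5042, 4575, 5104 and 3803, 3.48-fold lower (log2 change -1.80, SE 0.10, adjusted p = 4.71e-14). In both genes every culture at 48 h was far below every culture at 24 h. Probesets of this family may share signal between near-identical copies, so the split between the members is uncertain. Serpina6 encodes corticosteroid-binding globulin, the carrier of glucocorticoids in blood. Its signals were 1441, 1172, 1519.6, 1299 and 1269 at 24 h and 323, 304, 362, 396 and 218 at 48 h, 4.08-fold lower (log2 change -2.03, SE 0.14, adjusted p = 3.37e-12). Rup2, a rat urinary protein, was among the brighter of these genes, with signals of 58669.8, 56927, 58357, 55411 and 61924 at 24 h and 20735, 23729.9, 19594, 22962 and 19050.4 at 48 h. Its fall of 2.75-fold (log2 change -1.46, SE 0.07, adjusted p = 1.32e-14) was well beyond the spread of either group.

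Among the largest falls were also Nfkbiz, Cxcl1 and Il1rn, which act in inflammatory signalling. Nfkbiz, an inducible nuclear regulator of NF-kappaB target genes, had signals of 7332, 7409, 6857, 6526 and 6541 at 24 h and 1939, 2083, 2938, 2368 and 1983 at 48 h, 3.08-fold lower (log2 change -1.62, SE 0.10, adjusted p = 3.72e-13). Cxcl1, a chemokine that attracts neutrophils, went from 3111, 4272, 2179, 3868 and 3174 to 1054, 1064, 1206, 1114 and 1436, 2.75-fold lower (log2 change -1.46, SE 0.14, adjusted p = 1.23e-08). Il1rn, the secreted antagonist of the interleukin 1 receptor, went from 833, 833, 690.2, 953 and 861 to 272, 364, 214, 460.0 and 392, 2.45-fold lower (log2 change -1.29, SE 0.25, adjusted p = 0.00102). The groups did not overlap for any of the 3 genes, as the choice required. Of 25 tested members of the list of chemokines and NF-kappaB targets, which holds Cxcl1 and Il1rn, 3 were lower and 1 was higher. The list median was 0.04, and -0.04 under ribosomal centring. Nfkb1 was the other member that fell (-0.36), and Cxcl16, a membrane-bound chemokine, rose by 0.77 on the log2 scale. Lcn2, an iron-scavenging acute phase protein, fell by 0.44, and Zfp36, an RNA-binding protein that destabilises cytokine messages, fell by 0.27.

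Drug-metabolising P450 genes made up the next group. Cyp1a2, which oxidises caffeine and other planar compounds, had signals of 11855, 8914, 11706, 11285 and 11357 at 24 h and 4544, 2903, 3075, 2820.2 and 2878 at 48 h, 3.43-fold lower (log2 change -1.78, SE 0.12, adjusted p = 2.06e-12). Cyp1a1, which shares its receptor-driven induction, was bright at both times and had a log2 change of 0.01 (SE 0.19). Cyp3a2, a male-specific steroid hydroxylase of the rat, went from 8072, 6546, 6714, 7784 and 7506 to 2685, 2999, 2721, 3069 and 3439, 2.45-fold lower (log2 change -1.29, SE 0.09, adjusted p = 6.61e-12). Cyp3a9 went from 1809, 1674, 1866, 1641 and 1581 to 957, 699, 761, 578 and 737 and fell by 1.20 on the log2 scale (SE 0.10, adjusted p = 2.44e-10). The inducible Cyp3a23-3a1 in the same family had a change of 0.04 (SE 0.06). Cyp2c13, another male-specific enzyme, had signals of 8647, 9150.0, 8879, 9839.6 and 10061 at 24 h and 3338, 4172, 4667, 4327 and 5399.9 at 48 h, 2.14-fold lower (log2 change -1.10, SE 0.09, adjusted p = 1.65e-10). The groups were separate for all 4 of the falling genes, which the choice required of Cyp1a2 and Cyp3a2. Probesets of close relatives in these families may share signal.

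Over the list of constitutive P450 genes, 10 of 25 tested members were lower at 48 h and 1, Cyp2j4, was higher, with a median of -0.17. Besides Cyp2c13, Cyp2c7 fell by 0.84, Cyp2d3 by 0.67 and Cyp2e1, the ethanol-oxidising enzyme, by 0.57. Cyp2c11, the main male-specific enzyme of the rat liver, had a log2 change of 0.03 (SE 0.15). With the actin ratio in the model 8 members were lower, and without replicates 1, 2 and 3 at 24 h it was 7. Of 17 tested targets of CAR and PXR, the nuclear receptors that sense drugs, 4 were lower and none higher. These were Cyp3a2 and Cyp3a9, Cyp2b3 at -0.43 and Por, the reductase that supplies electrons to P450 enzymes, at -0.42. Gstp3, a glutathione transferase of the pi class, went from 763, 808, 809, 881 and 713 to 217, 81.4, 119, 291 and 94.7, 5.06-fold lower (log2 change -2.34, SE 0.27, adjusted p = 4.43e-07). The 48 h signals of Gstp3 were dim and spread widely, though all lay below those of 24 h, as the choice required. Of 26 tested members of the list of conjugating enzymes, which does not hold Gstp3, 3 rose and none fell. Gstp1 rose by 0.27 and Nat2 by 0.60, and under ribosomal centring none of the 26 rose and 1 fell.

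**Figure D2:**
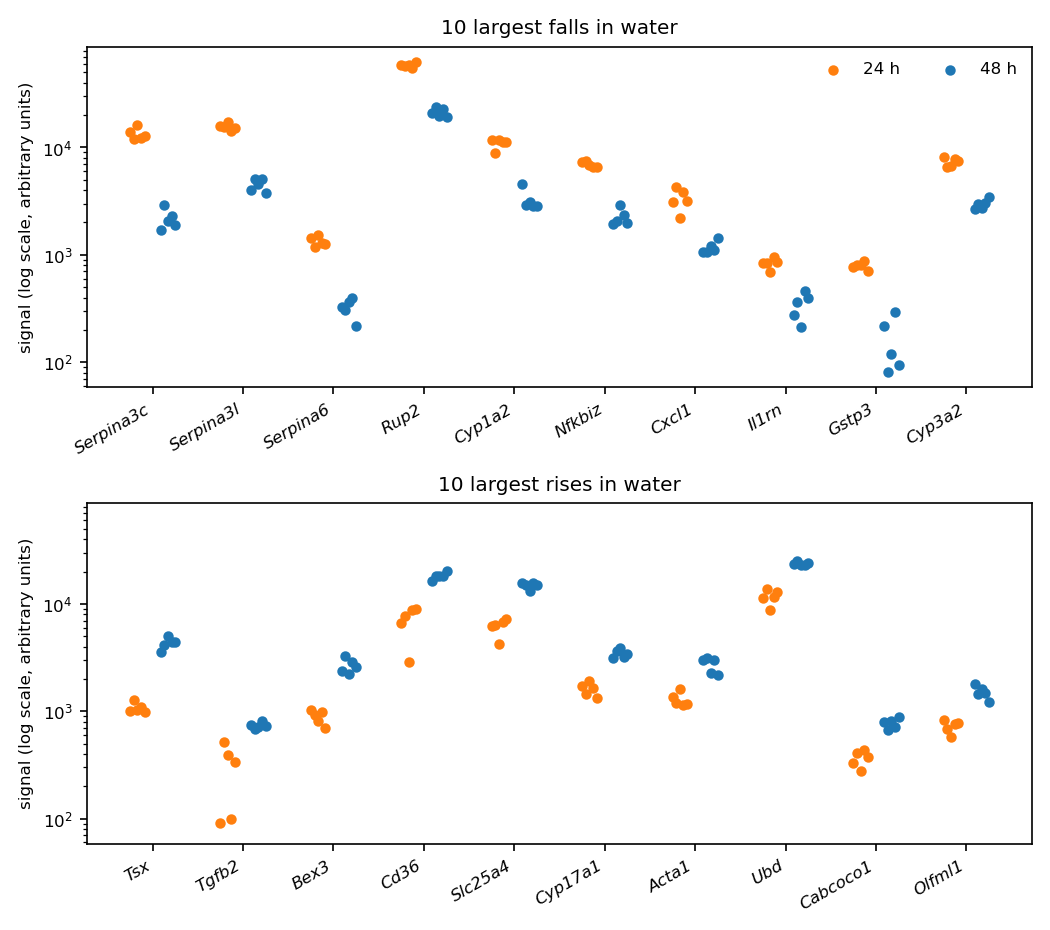
Signals of the 10 largest falls (top) and rises (bottom) in water, among called genes with separate groups and a higher mean at or above the median signal, are plotted on a log scale for each array, at 24 h (orange) and 48 h (blue). The 2 times are separate for all 20 genes, as the choice required.

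Clotting factors fell in most of their list. Of 17 measured members, all tested, 12 were lower at 48 h and none was higher, with a median of -0.36. The fibrinolysis proenzyme Plg, the protease F10 that forms thrombin, and the kallikrein precursor Klkb1 are in this list. Their promoters are shown because the genes fell together. The 120 bases before the annotated start are printed 5′ to 3′ on the gene's strand, taken from RefSeq on the rat build GRCr8, at chr1:50915407-50915526 (minus strand) for Plg, chr16:83190281-83190400 (minus strand) for F10 and chr16:53691106-53691225 (plus strand) for Klkb1.
Plg: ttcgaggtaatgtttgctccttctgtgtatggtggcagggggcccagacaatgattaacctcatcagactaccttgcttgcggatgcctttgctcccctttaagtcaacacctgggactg
F10: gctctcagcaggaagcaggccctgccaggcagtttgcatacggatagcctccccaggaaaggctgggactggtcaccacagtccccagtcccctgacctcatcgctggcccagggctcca
Klkb1: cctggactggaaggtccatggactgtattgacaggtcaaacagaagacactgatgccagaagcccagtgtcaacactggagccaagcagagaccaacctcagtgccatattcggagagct
The 250 bases before the start were searched on both strands for CAAAGTCCA, a form of the site bound by Hnf4a. It was found in none of the 15 members with a promoter in the table, and in 113 of 33469 promoters (0.338%).

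The largest fall among clotting factors was that of Serpind1, heparin cofactor II, an inhibitor of thrombin. Its signals were 4465, 5066, 4122, 4981 and 4732 at 24 h and 1874, 2459, 1955, 2187 and 2652 at 48 h, 2.10-fold lower (log2 change -1.07, SE 0.12, adjusted p = 4.62e-07). F10 went from 19294, 18771, 22986, 19250.4 and 20756 to 16337, 14600.1, 13215, 15179.8 and 12927, 1.40-fold lower (log2 change -0.48, SE 0.10, adjusted p = 0.00167). Plg went from 36845, 35681, 40573, 37034 and 44349.9 to 32624, 30441, 23541, 28473 and 25326, 1.39-fold lower (log2 change -0.47, SE 0.10, adjusted p = 0.00207). These 3 genes were lower in each culture at 48 h than in any at 24 h. Klkb1 fell by 0.45 (adjusted p = 0.00618) with groups that overlapped. The other 8 calls covered the fibrinogen chains Fga (-0.42) and Fgb (-0.28), antithrombin Serpinc1 (-0.42), prothrombin F2 (-0.30), F5 (-0.40), F12 (-0.27), the plasmin inhibitor Serpinf2 (-0.36) and the growth factor activator Hgfac (-0.41). The count was 9 of 17 without replicate 3 at 24 h, without replicate 3 at 48 h or with the actin ratio in the model, and 7 of 17 without replicates 1, 2 and 3 at 24 h. The median stayed between -0.27 and -0.38 in these settings.

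Complement and acute phase genes fell in 11 of 24 tested members, with none higher and a median of -0.24. C3, the central complement protein, had signals of 44656, 52513, 59122, 43949.7 and 50987 at 24 h and 27829, 27089, 23141, 25589 and 23396 at 48 h, 1.97-fold lower (log2 change -0.98, SE 0.11, adjusted p = 1.58e-07). A2m, the protease inhibitor alpha-2-macroglobulin, which is a major acute phase protein of the rat, went from 56733, 66660.0, 68846, 56552 and 67880.2 to 39971, 41342, 29863, 38838 and 28530.4, 1.79-fold lower (log2 change -0.84, SE 0.11, adjusted p = 2.49e-06). Both sets of values were separate. C4bpb, a chain of the complement inhibitor C4-binding protein, went from 2887, 3907, 2679, 3954 and 3255 to 1900.1, 1654, 1896, 2054 and 2284, 1.69-fold lower (log2 change -0.76, SE 0.10, adjusted p = 3.21e-06). C5 fell by 0.76, and the 3 chains of complement component C8 fell together, C8a by 0.56, C8b by 0.40 and C8g by 0.23. The fibrinogen-like hepatokine Fgl1 fell by 0.41. Without replicate 3 at 24 h 12 members were lower and 1 higher, with the actin ratio in the model 13 were lower and 1 higher, and without replicates 1, 2 and 3 at 24 h 11 were lower.

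Other secreted proteins were split. Of 24 tested carriers, 8 were lower and 1 higher, with a median of -0.07. After Serpina6, the inter-alpha-trypsin inhibitor heavy chains Itih2 (-0.57), Itih4 (-0.51) and Itih1 (-0.30) and the copper carrier Cp (-0.48) fell. The abundant transport proteins did not pass the test, with Alb as given above and Ttr, the thyroid hormone carrier, at -0.04 (SE 0.07). Of 17 tested genes of lipoproteins and lipid export, 6 were lower and 1 higher, with a median of -0.20. Lipc, hepatic lipase, fell by 0.75 (SE 0.07, adjusted p = 1.25e-08) and Lcat, which esterifies cholesterol in plasma, fell by 0.60 (SE 0.10, adjusted p = 8.99e-05). Apob, the structural protein of very low density lipoprotein, fell by 0.40, and Apoa5 rose by 0.44.

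**Figure D3:**
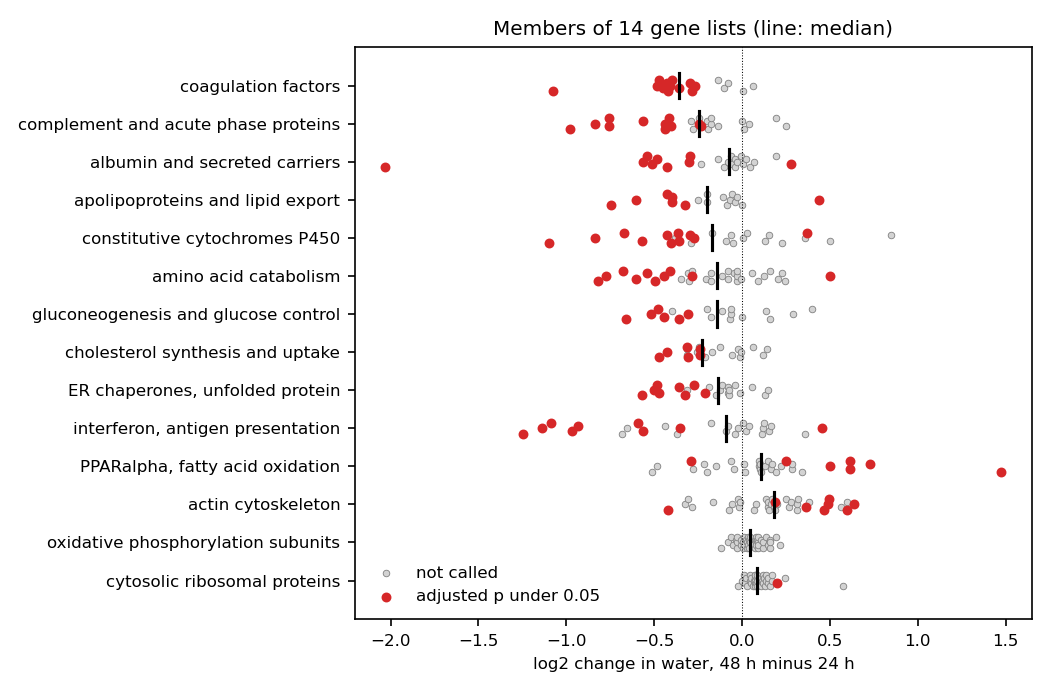
Each point is 1 tested member of a gene list, at its log2 change in water (48 h minus 24 h, horizontal axis), red where the adjusted p was under 0.05 and grey otherwise, with the median of the list as a line. Clotting factors have 12 red points, all below 0, oxidative phosphorylation has none, and the lists of PPARalpha targets and of the actin cytoskeleton have medians above 0.

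Of 19 tested hepatocyte transcription factors, 2 were lower and none higher. Hnf4a, a nuclear receptor that maintains hepatocyte gene expression, had signals of 11673, 12958, 15854, 10599 and 11124 at 24 h and 8394, 7908, 7622, 8105 and 7611 at 48 h. The 24 h values varied more than those at 48 h, replicate 3 being the highest, and the groups were separate. The fall of 1.55-fold (log2 change -0.64, SE 0.10, adjusted p = 0.000101) became 0.54 on the log2 scale without replicate 3 at 24 h (adjusted p = 0.000462) and 0.41 with the actin ratio in the model (adjusted p = 3.89e-07). Cebpa fell by 0.31 (SE 0.08, adjusted p = 0.0153) with groups that overlapped. Afp, which marks fetal hepatocytes, had a change of 0.19 (SE 0.10), short of the threshold.

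Metabolic enzymes of the hepatocyte fell in part. Of 32 tested genes of amino acid breakdown, 9 were lower and 1 higher, with a median of -0.14. Hal, which starts histidine breakdown, fell by 0.82 and Aass, which starts lysine breakdown, by 0.77. Tat, the glucocorticoid-induced tyrosine aminotransferase, had a change of -0.03 (SE 0.11). Of 18 tested genes of glucose control, 6 were lower and none higher, among them Pc, pyruvate carboxylase, at -0.66 and the glucagon receptor Gcgr at -0.52. With the actin ratio in the model Pc had a change of -0.42 (adjusted p = 0.0437) and Gcgr of -0.41 (adjusted p = 0.18), and Gcgr also missed the threshold without replicate 3 at 24 h (adjusted p = 0.085). Pck1, the classic gluconeogenic enzyme, had a change of 0.14 (SE 0.20). Of 15 tested genes of the urea cycle and nitrogen handling, 3 were lower, with Gpt, alanine aminotransferase, at -0.67 and the urea cycle enzyme Cps1 at -0.02 (SE 0.05). Without replicates 1, 2 and 3 at 24 h, 4 genes of amino acid breakdown and 2 of glucose control were lower.

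Cholesterol synthesis was lower at 48 h in 6 of 20 tested genes and higher in none, with a median of -0.23. Hsd17b7, a sterol reductase of the pathway, had signals of 7145, 6588, 6298, 7553 and 7480.3 at 24 h and 4901, 4994, 5307, 4995 and 4955 at 48 h, 1.39-fold lower (log2 change -0.47, SE 0.08, adjusted p = 0.000127). The 48 h cultures lay close together and below all of 24 h. Mvd fell by 0.43, Lss by 0.31, Cyp51 by 0.31, Tm7sf2 by 0.24 and Fdft1, squalene synthase, by 0.24. The number lower was 8 with the actin ratio in the model and 7 without replicates 1, 2 and 3 at 24 h, but 3 when replicate 1 at 48 h, replicate 2 at 48 h or replicate 5 at 24 h was left out. Fatty acid synthesis showed no shared direction, with 3 genes higher and 2 lower of 26 tested. The desaturases Fads1 and Fads2 rose by 0.59 and 0.72, Acaca, which makes malonyl-CoA, fell by 0.54, and Fasn had a change of -0.18 (SE 0.12). Bile acid genes split as well, with Acox2, a peroxisomal enzyme of side chain cleavage, at -0.73, Slc27a5, which activates bile acids, at 0.47 and Cyp7a1, which controls the rate of bile acid production, at -0.54 (SE 0.20), short of the threshold. Abcb11, the bile salt export pump, fell by 0.52.

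Interferon-responsive genes fell in 8 of 27 tested members of their list, and 1, the immunoproteasome subunit Psmb10, rose by 0.46. The list median was -0.09. Isg15, a ubiquitin-like protein induced by interferon, had signals of 2985, 3152, 3433, 2936 and 3914 at 24 h and 904, 1124, 1179, 1435 and 4012 at 48 h. In 4 of 5 cultures at 48 h the signal was below all of 24 h, while replicate 5 was above them. Mx2, an interferon-induced GTPase, showed the same culture apart, with 2867, 2445, 3658, 3016 and 2849 at 24 h and 729.9, 800.3, 1254, 1153 and 3308 at 48 h. The log2 change was -1.14 (SE 0.25, adjusted p = 0.00392) for Isg15 and -1.25 (SE 0.26, adjusted p = 0.00241) for Mx2. The other members that fell were Usp18 (-1.09), Irf7 (-0.97), Oas1a (-0.93), RT1-Da (-0.59), Stat2 (-0.56) and Irf9 (-0.35). Without replicate 5 at 48 h, 8 members were lower and 1 higher, and the list median was -0.32. Without replicate 1 at 48 h the median was -0.05, with 9 lower and 2 higher. Without replicates 1, 2 and 3 at 24 h, 3 members were lower, and the adjusted p was 0.0637 for Isg15 and 0.0588 for Mx2.

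The promoters of Irf7, a transcription factor of interferon genes, and Oas1a, an antiviral nucleotide synthase, are shown because they hold a motif of interferon-responsive genes. They and the motif were chosen after the values were seen. The 120 bases before the start are given as above, at chr1:205800024-205800143 (minus strand) for Irf7 and chr12:41330346-41330465 (plus strand) for Oas1a, with matches to GAAANNGAA on either strand in capitals.
Irf7: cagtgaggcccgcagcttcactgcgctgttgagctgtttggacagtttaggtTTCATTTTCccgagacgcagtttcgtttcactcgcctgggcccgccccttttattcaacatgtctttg
Oas1a: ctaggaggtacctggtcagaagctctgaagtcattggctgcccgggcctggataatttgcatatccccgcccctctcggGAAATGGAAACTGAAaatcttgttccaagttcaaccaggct
The match of Irf7 begins 68 bases before the start and reads on the opposite strand, and the 2 matches of Oas1a begin 41 and 35 bases before the start and overlap. A match lay within 250 bases before the start in 9 of the 21 measured members with a promoter in the table, in 2 of the 5 that fell and have one, and in 2717 of 33469 promoters (8.12%).

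Stress genes changed in parts. Of 22 tested chaperones and unfolded protein response genes, 8 were lower and none higher, with a median of -0.14. Atf6, a sensor of misfolded proteins, fell by 0.57, but the change was -0.25 with the actin ratio in the model (adjusted p = 0.351) and -0.47 without replicate 3 at 24 h (adjusted p = 0.141). Sel1l, a scaffold of protein degradation at the endoplasmic reticulum, fell by 0.50. None of the 22 passed the test without replicates 1, 2 and 3 at 24 h, and 5 did with the actin ratio in the model or without replicate 4 at 48 h. Of 18 tested Nrf2 targets and metallothioneins, Gclc (-0.48), Srxn1 (-0.43) and Txnrd1 (-0.40) fell, which make glutathione or reduce oxidised proteins, and Mt2A rose by 0.28. Without replicates 1, 2 and 3 at 24 h, only Srxn1 of these kept its call. Of 20 tested clock genes, Clock (-0.45), Per2 (-0.44) and Nr1d2 (-0.41) fell and none rose, where 4.96% of all genes fell. None of these clock genes kept its call without replicates 1, 2 and 3 at 24 h. Among heat shock proteins, Cryab rose by 0.73 and Hspa1a fell by 0.44.

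The rises were fewer at 2-fold or more and came from mixed groups. Tsx, an X-linked transcript, had signals of 1003, 1276, 1032, 1091 and 978 at 24 h and 3584, 4147, 5019, 4446 and 4395 at 48 h, 3.96-fold higher (log2 change 1.99, SE 0.19, adjusted p = 1.37e-08). Bex3, a small adaptor protein of growth factor signalling, went from 1031, 931, 804, 981 and 701 to 2356, 3252, 2226, 2902 and 2561, 2.95-fold higher (log2 change 1.56, SE 0.14, adjusted p = 1.2e-09). Tgfb2, a secreted cytokine of the TGF-beta family, went from 91.0, 522, 393, 100.0 and 338 to 749, 685, 714, 817 and 727, 3.02-fold higher (log2 change 1.59, SE 0.40, adjusted p = 0.0118). The 24 h values of Tgfb2 were dim and varied widely among themselves, while the 48 h values were close together. Cyp17a1, which makes steroid hormones, went from 1719, 1456, 1934, 1647 and 1330.0 to 3143, 3665, 3876, 3199 and 3429, 2.14-fold higher (log2 change 1.10, SE 0.12, adjusted p = 1.78e-07). Ubd, an interferon-inducible ubiquitin-like protein, went from 11430.1, 13728, 8846, 11528 and 13049 to 23615, 24852, 23178, 23192 and 23939, 2.05-fold higher (log2 change 1.03, SE 0.16, adjusted p = 6.17e-05). Each of these genes was higher in every culture at 48 h, as the choice of genes required. Cabcoco1 and Olfml1, chosen in the same way, rose by 1.08 and 1.05 on the log2 scale.

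Cd36 and Slc25a4, which move fatty acids and nucleotides across membranes, were among the largest rises. Cd36, a fatty acid transporter of the cell surface, had signals of 6637, 7742, 2904, 8828 and 8886 at 24 h and 16303, 18191, 18083, 18089 and 20211 at 48 h, 2.78-fold higher (log2 change 1.48, SE 0.23, adjusted p = 8.18e-05). Replicate 3 at 24 h was by far the lowest, and the log2 change was 1.18 without it (adjusted p = 0.000133) and 0.94 with the actin ratio in the model (adjusted p = 2.78e-08). Slc25a4, the mitochondrial carrier that exchanges ADP for ATP, went from 6245, 6425, 4256, 6753 and 7187 to 15635, 14973, 13252, 15811 and 15157, 2.45-fold higher (log2 change 1.29, SE 0.10, adjusted p = 1.7e-10), and again replicate 3 was the lowest. Of 31 tested targets of PPARalpha, the fatty acid receptor that controls oxidation, 6 were higher and 1 lower, with a median of 0.11. Beside Cd36, Pdk4, which spares glucose by blocking pyruvate oxidation, rose by 0.73, Vnn1 by 0.62, the fatty acid hydroxylase Cyp4a1 by 0.62, Ehhadh by 0.50 and Acot2 by 0.25. The mitochondrial dehydrogenase Acadvl fell by 0.29, and Cpt1a, the gate for entry of fatty acids into mitochondria, had a change of 0.28 (SE 0.12), short of the threshold. Under ribosomal centring 4 members were higher and 2 lower, and without replicates 1, 2 and 3 at 24 h 4 were higher and none lower.

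Structural genes rose in a smaller number. Of 37 tested genes of the actin cytoskeleton, 7 were higher and 1 lower, with a median of 0.18. S100a11, a calcium-binding partner of annexins, rose by 0.64 (SE 0.08, adjusted p = 1.19e-06), Anxa5 by 0.60 (SE 0.08, adjusted p = 1.1e-05), Tagln2 by 0.49 and Vim, the filament of mesenchymal cells, by 0.36. Vcl, vinculin of cell adhesions, fell by 0.42. Without replicate 3 at 24 h 5 were higher, with the actin ratio in the model 6, and without replicates 1, 2 and 3 or under ribosomal centring 4. Acta1, skeletal muscle actin, went from 1353, 1191, 1609, 1141 and 1177 to 3003, 3134, 2286, 3006 and 2168, 2.08-fold higher (log2 change 1.06, SE 0.19, adjusted p = 0.000457). Every culture at 48 h was above those at 24 h, as the choice of this gene required. Plat, tissue plasminogen activator, rose by 0.76 and the progenitor-associated transcription factor Sox4 by 0.98. The junction gene Cdh1 had a change of -0.25 (SE 0.09) and the matrix gene Fn1 of -0.18 (SE 0.08), neither past the threshold.

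Housekeeping groups moved little. None of 44 tested oxidative phosphorylation subunits passed the test, with a median of 0.05 (-0.03 under ribosomal centring) and changes from -0.12 to 0.21. Of 41 tested ribosomal proteins 1, Rpl14, was higher by 0.20, and quantile normalization called 12 of them higher. Of 30 tested proteasome subunits 1, Psmd7, was lower by 0.20, with a list median of 0.03 (-0.04 under ribosomal centring). Of 33 tested cell cycle genes 1, Ube2c, was higher by 0.82 at a dim signal.

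Summed signals of markers of other liver cells were far below those of hepatocyte markers, and few of these markers passed the test. Of 17 measured markers of Kupffer cells, the macrophages of the liver, 1 of 13 tested, Cd5l, was lower by 0.91, and their summed signal ranged from 31922 to 36582 at 24 h and from 27508 to 30521 at 48 h. Adgre1 and Ptprc were below the filter level at both times and Laptm5 at 48 h, while 13 of the 17 passed the filter over all arrays. Of 15 endothelial markers, Lyve1 was lower by 1.05, with sums from 4411 to 5557 at 24 h and from 3746 to 4009 at 48 h, and Pecam1 and Vwf were below the filter level at both times. Of 11 markers of bile duct cells, 7 tested, Epcam rose by 0.53 and Ggt1 by 0.92, with sums from 9819 to 10864 and then from 13881 to 15441, while Krt7 and Krt19 were below the filter level at both times. None of 12 tested stellate cell markers passed the test, and their sums ranged from 7383 to 8169 and from 7964 to 9278. Of 8 tested lymphocyte markers Cd3g, a chain of the T cell receptor complex, rose from dim signals of 150.3, 261, 50.6, 33.7 and 135 to 351, 262, 227, 481 and 465.5, while Cd3d and Cd2 were below the filter level at both times. The lymphocyte sums overlapped, from 5203 to 7495 at 24 h and from 4761 to 6764 at 48 h. The sums of Kupffer cell and endothelial markers, lower at 48 h, and of bile duct markers, higher, did not overlap between the times. The bile duct sums, with medians of 10122 and 14742, were mostly Epcam, whose mean signals were 7629.5 and 10993. Spp1, Cldn4 and Cd24 were, like Krt7 and Krt19, below the filter level at both times. The part of other cells in the changes above was not tested.

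The valproate cultures gave the same time comparison in other samples. They share no array with the water comparison, though all 30 arrays set the filter and the variance of the model. In 0.5 mM, 1168 genes were higher at 48 h (10.1%) and 782 lower (6.74%). In 10 mM, 1051 were higher (9.06%) and 887 lower (7.64%). Of the 593 genes that rose in water, 294 had the same sign in 0.5 mM (49.6%), 92 rose and 35 fell there. Of the 576 that fell in water, 186 had the same sign (32.3%), 86 fell and 157 rose. In 10 mM the shares with the same sign were 60.0% and 52.8%. For comparison, 49.7% of all genes had a change above 0 in 0.5 mM and 48.7% in 10 mM. The change itself differed from that in water for 2516 genes in 0.5 mM (21.7%) and for 1489 in 10 mM (12.8%), by the interaction of time and treatment.

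The share with the same sign is given by the size of the water change, and the difference between sizes was not tested. Of the 10 falls plotted above, chosen for separate groups and brightness, 10 were called lower in 0.5 mM too and 7 in 10 mM. The 10 rises plotted all had a change above 0 in 0.5 mM, of which 6 were called, and in 10 mM 9 did and 3 were called. Genes left out by those conditions include Prokr1, with 1.69 in water and -1.19 in 0.5 mM, Bgn, with -1.43 and 0.88, and Dact1, with -1.52 and -0.20, picked here after their values were seen. Among all genes with a fall of at least 2-fold in water, 28 of 36 had the same sign in 0.5 mM (77.8%), 21 were called lower and 3 higher. Among falls under 0.5 on the log2 scale, 100 of 386 had the same sign (25.9%) and 117 were called higher. For rises the share was 44.6% of 390 small ones and 72.7% of 22 of at least 2-fold. In 10 mM the corresponding shares were 51.0% and 72.2% for falls and 59.7% and 63.6% for rises.

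The actin ratio moved in opposite directions in water and in 0.5 mM, and its part in the share of genes with the same sign was not tested. Over all called genes it was 41.1% (exact binomial 95% interval 38.2% to 43.9% over genes, which are not independent). It was 51.7% without replicate 3 at 24 h, 61.1% with the actin ratio in the model and 72.1% without replicates 1, 2 and 3 at 24 h, each over the genes called in that setting. Without replicate 3 or 5 at 48 h it was 46.0% and 47.6%. Genes called lower in water and higher in 0.5 mM numbered 157, and 73 of these were also called in water without replicate 3 and with the actin ratio in the model. For 17 of them the water call also held without replicates 1, 2 and 3. In 10 mM, where the mean ratio was alike at both times, the share was 56.5% over all called genes, 58.9% with the actin ratio in the model and 61.3% without the 3 arrays.

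**Figure D4:**
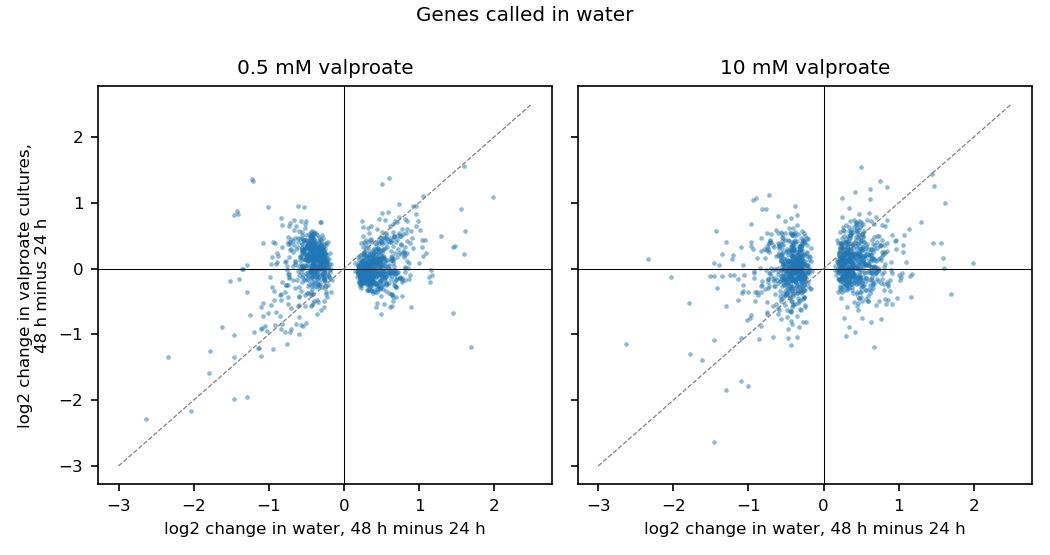
For the 1169 genes called in water (points), the log2 change in water (horizontal axis) is plotted against that in cultures with 0.5 mM (left) or 10 mM valproate (right), all 48 h minus 24 h, with the line of equal change dashed. At 0.5 mM many small falls in water lie above 0, where 32.3% of falls had the same sign, while Serpina3c, the largest fall, lies near the dashed line at -2.63 in water and -2.29 in 0.5 mM.

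Single genes differed in how they changed in drug-treated cultures. In 0.5 mM the log2 change was -2.29 for Serpina3c, -1.59 for Serpina3l, -2.16 for Serpina6, -1.35 for Rup2, -1.26 for Cyp1a2, -1.98 for Cxcl1 and -1.96 for Il1rn, all called. In 10 mM the change was -2.63 for Cxcl1 and -1.85 for Il1rn, and Serpina3c fell by 1.14, less than in water by 1.49 on the log2 scale (interaction adjusted p = 3.59e-05). Serpina6 had a change of -0.13 in 10 mM, which differed from water by 1.90 (interaction adjusted p = 3.71e-08). Clotting factors were lower in 5 of 17 tested members in 0.5 mM and in 10 of 17 in 10 mM, with medians of -0.06 and -0.38. Complement and acute phase genes were lower in 8 and 11 of 24, with 2 and 3 higher. C3 had a change of -0.13 in 0.5 mM, which differed from water, C8a rose there by 0.31, and C4bpb rose by 0.54 in 10 mM.

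Hnf4a, which fell in water, was higher at 48 h under the drug. It rose by 0.29 in 0.5 mM (adjusted p = 0.0462) and by 0.58 in 10 mM (adjusted p = 0.000101), and both changes differed from that in water (interaction adjusted p = 0.00011 and 6.08e-07). For cholesterol synthesis the 2 doses differed in direction. Hsd17b7 rose by 0.37 in 0.5 mM, and 12 of 20 tested genes of cholesterol synthesis were higher there and 1 lower, with a median of 0.33, while in 10 mM none was higher and 8 were lower. PPARalpha targets were higher in 10 of 31 tested members in 0.5 mM and in 21 of 31 in 10 mM. Cyp3a2 fell by 0.35 in 0.5 mM and rose by 0.41 in 10 mM. The mean actin ratio in 0.5 mM was 1.29 at 24 h and 1.82 at 48 h. With the ratio in the model, 1257 probesets changed there, against 3284 without it. The part of RNA quality in the 0.5 mM changes of single genes and lists was not tested.

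**Figure D5:**
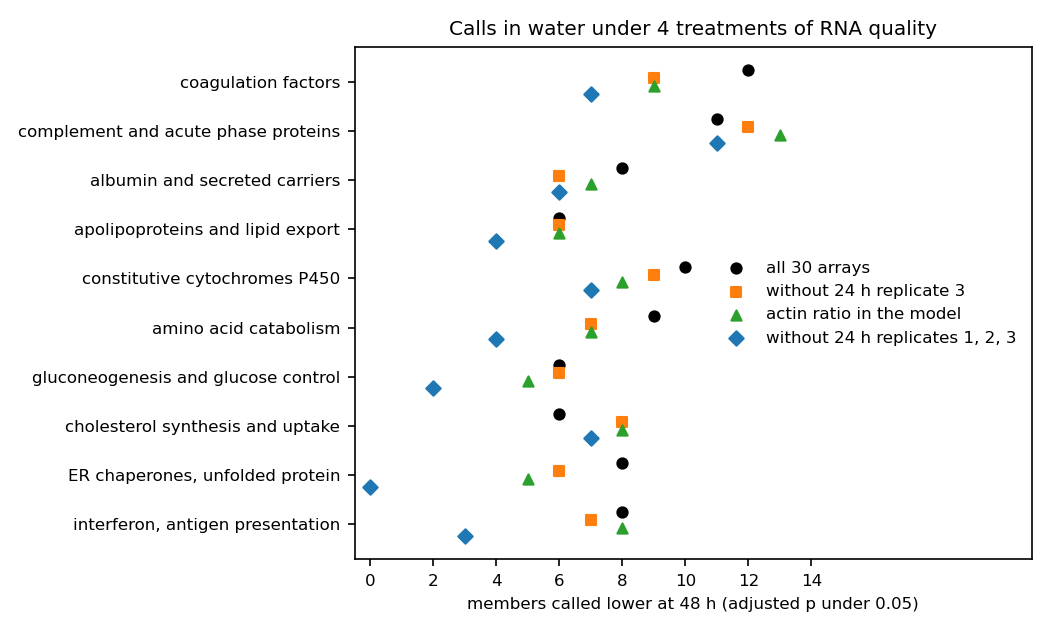
The number of members called lower at 48 h in water (horizontal axis) is shown for 10 gene lists with all arrays (black circles), without replicate 3 at 24 h (orange squares), with the actin ratio in the model (green triangles) and without replicates 1, 2 and 3 at 24 h (blue diamonds). Complement and acute phase genes stay between 11 and 13, clotting factors go from 12 to 7, and chaperones go from 8 to 0.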

How the data were processed

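Signal intensities were deposited by the authors on a linear scale for 31099 probesets (57 of them controls), made with the MAS5 method per the submitters' processing notes, and every array had the same trimmed mean of 1499.94. Per the labels, each array held RNA of 1 culture. Of the probesets, 20826 had 1 gene symbol, 436 several and 9780 none in the platform annotation. The intensities were taken as log2(signal + 16), and probesets below the 30th percentile of mean log2 signal were left out, which kept 21729. Time changes and their differences were fitted with limma 3.58.1 in R 4.3.3 over all 30 arrays in 6 groups, with a variance trend and Benjamini-Hochberg adjustment over all probesets tested. Calls used an adjusted p below 0.05. Fold changes are on the log2(signal + 16) scale and understate those of dim genes. Each gene was represented by its brightest probeset, which gave 14217 genes, 11604 of them tested. Single values were tested by exact permutation in scipy 1.17.1. Only the limma fit was tested on simulated data, which had independent noise and no effect of RNA quality.

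The members and the gene lists were chosen with earlier results of these data known. Named genes were the 10 largest rises and falls whose groups did not overlap and whose higher mean reached the median signal, the 4 strongest called members of any list with at least 40% called and the 2 strongest of any other, up to 5 per direction of the difference from 0.5 mM, and a set of reference genes. Other members named beside a list's count were added after their values were seen. Actb was not analysed here. The alternatives covered the pseudocount, scaling, filter, model, RNA quality, probeset choice and each array left out in turn. The alternative for probeset choice is not relied on, as its values were not true means for all genes. Promoters came from RefSeq.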

Additional observations from a re-analysis of the deposited data

Results flagged for a closer look

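Single arrays stood apart from the rest of their group in a few values. The log2 actin ratio of replicate 3 at 24 h, 2.76, was far above the other 4 of its group. That of replicate 1 at 48 h, 1.33, was a little above the other 4, which lay close together from 1.20 to 1.22. It was still below every array at 24 h. For 34 genes given array by array, 68 groups were checked and 5 had such a value, where chance gives about 1 in 20 groups. These were Cyp1a2 at 24 h (8914.4) and 48 h (4543.9), Cd36 at 24 h (2903.9), Slc25a4 at 24 h (4256.0) and Hsd17b7 at 48 h (5307.1). The lowest 24 h values of Cd36 and Slc25a4 came from the array with the highest actin ratio, and the part of RNA quality in them was not tested.

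The time change in drug-treated cultures was compared with that in water by the interaction in limma, which called 21.7% of all genes in 0.5 mM and 12.8% in 10 mM. Of the 34 genes, chosen mostly for their change in water, which the interaction subtracts, 18 differed in 0.5 mM and 22 in 10 mM, and these counts are a description. All values below are the log2 time change with the drug minus that in water.

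In 10 mM the difference was 1.49 for Serpina3c, 1.28 for Serpina3l, 1.9 for Serpina6, 0.38 for Rup2, 2.48 for Gstp3 and -1.17 for Cxcl1. Among P450 genes it was 1.7 for Cyp3a2, 1.11 for Cyp3a9, 1.43 for Cyp2c13 and -1.0 for Cyp17a1. For clotting and complement genes it was 0.83 for Serpind1, -0.58 for Plg and 1.29 for C4bpb. For Hnf4a it was 1.22, for Hsd17b7 0.68 and for Mx2 1.15. Among genes that rose in water it was -1.9 for Tsx, -1.18 for Bex3, -0.59 for Slc25a4, -1.16 for Ubd, -0.8 for Olfml1 and -1.59 for Cd3g.

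In 0.5 mM it was 0.52 for Cyp1a2, 0.74 for Nfkbiz, 0.94 for Cyp3a2, 0.51 for Cyp2c13 and -0.86 for Cyp17a1. For clotting and complement genes it was 0.38 for F10, 0.42 for Plg, 0.85 for C3 and -0.38 for C4bpb. For Hnf4a it was 0.93 and for Hsd17b7 0.85. Among genes that rose in water it was -0.91 for Tsx, -0.66 for Bex3, -1.13 for Cd36, -0.81 for Slc25a4, -0.71 for Ubd, -0.64 for Cabcoco1 and -0.86 for Olfml1. Genes chosen for a large difference, among those with a mean at or above the median signal in some group, were Inf2 (2.64), Trim36 (2.58), Zfp672 (2.54), Actmap (2.4) and Nfic (2.39) above 0, and Cryaa (-2.68), Acadsb (-2.26), Btc (-2.13), Hba-a3 (-2.13) and Tmem14a (-2.12) below it. The actin ratio moved in opposite directions in water and 0.5 mM, and its part in these differences was not tested gene by gene. The water change without and with the ratio in the model was -0.99 and -0.35 for Inf2 and -1.49 and -0.89 for Actmap. It was 1.24 and 0.09 for Acadsb and 0.69 and 0.09 for Btc. Trim36, Zfp672, Nfic, Cryaa and Tmem14a moved less, and Hba-a3 went from 1.66 to 1.84. Some signals were dim, as 12.7 for Acadsb (replicate 3) and 55.6 for Cryaa (replicate 2), both in water at 24 h.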

How the results depend on the processing

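Counts below are of probesets unless genes are named. The share of genes called in water with the same sign in 0.5 mM was 37.8% with ribosomal centring, 44.7% with no variance trend, 44.3% with only the compared groups, 46.2% with the mean of a gene's probesets and 61.1% with the actin ratio in the model. With only the compared groups, 1047 probesets and 759 genes were called in water, 1036 in 0.5 mM, 4461 in 10 mM and 2817 for the difference of 0.5 mM from water. Array weights gave 4690 in 10 mM. The actin ratio in the model gave 1257 in 0.5 mM and 614 for its difference from water. The filter at the 50th percentile left 60 water changes of at least 2-fold. Of the settings chosen after seeing the data, leaving out the 3 arrays with a ratio above 2 gave 1078 in 0.5 mM, 1491 for its difference from water and a share of 54.2%. Leaving out the 3 water arrays at 24 h with the highest ratios gave 530 probesets and 380 genes in water, 908 and 1365 for the differences of 0.5 mM and 10 mM, and a share of 72.1%. Leaving out 1 array at a time gave shares from 35.9% (without 24 h replicate 4 in water) to 51.7% (without replicate 3), and 1766 to 4604 calls in 0.5 mM (without replicates 3 and 1 at 48 h there). The causes of these differences were not tested. The setting with the mean of a gene's probesets gave a share of 46.2% and turned Sesn1 to 0.035. Its values were not true means for all genes, so they are not relied on. Tsx, for example, came out at 0.993 against 1.987 in the main fit. The labels give the arrays a running number without saying what it marks, and a block on runs of 6 gave 1713 probesets in water and a share of 41.1%. Arrays of a run did not deviate together, with correlations from -0.019 to 0.04. Over named genes, 2424 values in the planned settings kept direction and side of the threshold, 187 lost the call, 16 gained it and 1 reversed. These counts include the setting with the mean of a gene's probesets, which is not relied on, and the reversed value, for Sesn1, came from it. The number of arrays and dim signals limit the precision.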
